A study of Mus musculus with 8 samples.

Results

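The Wnt pathway genes described here are 48 genes chosen by name from the 24341 genes of the expression table. They cover 8 ligands, 10 Frizzled receptors, 5 co-receptors and related receptors, 9 secreted antagonists, 4 Tcf/Lef transcription factors, 7 genes of the destruction complex and of negative feedback, 3 genes of the R-spondin arm and 2 genes needed to secrete the ligands. The study asked which genes respond when the Hippo kinases LATS1 and LATS2 are lost from the pancreas. Total RNA was sequenced from 8 pancreas buds at E11.0, each from its own embryo and all labelled as strain CD1. Of these buds, 5 were WT, and 3 were Pdx1Creearly;Lats1f/f;Lats2f/f, called Lats1/2PanKO here, in which Cre recombinase driven by the Pdx1 promoter deletes both floxed kinase genes in pancreatic progenitors. Cells that never expressed Pdx1, such as mesenchyme, keep the kinases. Mesenchyme was pulled away with forceps, and the labels give no batch, litter or sex. In general the study set mutants beside WT or heterozygous littermates, and the control buds here are labelled WT.

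Wnt ligands are secreted lipoproteins. Porcn attaches the lipid, and Wls carries the ligand to the cell surface. In the canonical branch a ligand joins a Frizzled receptor to Lrp5 or Lrp6, the complex around Axin stops degrading β-catenin, and β-catenin acts in the nucleus with Tcf/Lef factors. Among its best known targets are brakes on the pathway itself, such as Axin2, Nkd1, Notum, Rnf43 and Znrf3. Other ligands, Wnt5a among them, signal through Ror and Ryk receptors without β-catenin. In the embryonic pancreas the pathway is used for exchange between the epithelium and the mesenchyme around it.

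Values are FPKM, fragments scaled to the length of the transcript and to the size of the library, which allow levels of different genes to be compared. Differences were tested on log2(FPKM + 1) with limma across the 13777 genes whose mean over the 8 libraries reached 0.5 FPKM, and the Benjamini-Hochberg adjustment covered every gene tested. A log2 fold change below always means Lats1/2PanKO minus WT on that scale, which understates changes of genes at low levels. Of the Wnt genes 41 were tested, and 7 lay below the limit. Counts of fragments per gene were not used here, and only relative depth was read from the FPKM values. Among genes under 0.3 FPKM, the value of a single fragment relative to WT replicate 1 was 0.97 to 1.04 in 6 libraries and 1.283 in WT replicate 5, the shallowest. Lats1 was lower in every Lats1/2PanKO bud (10.1 to 13.8 FPKM) than in every WT bud (14.1 to 16.6 FPKM), while Lats2 overlapped (11.1 to 13.4 against 11.6 to 14.7 FPKM).

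Epithelial and mesenchymal genes were both present in every bud. The summed FPKM of 13 epithelial markers, such as Cdh1 and Epcam, was 209 to 272 in WT buds and 486, 424 and 1021 in Lats1/2PanKO replicates 1, 2 and 3. That of 16 mesenchymal markers was 706 to 947 in WT buds and 559.9, 723 and 339 in the same 3 mutant buds, and no marker of either list was at 0 in all libraries. Replicate 3 of Lats1/2PanKO therefore stood apart as the bud with the most epithelial and the least mesenchymal RNA. In bulk RNA, fewer cells of a type and less RNA per cell cannot be told apart. Summed levels of 10 pancreatic progenitor markers (108 to 157 FPKM in WT, 168 to 429 FPKM in Lats1/2PanKO buds) did not overlap, and those of 10 liver markers (108 to 191 and 158 to 452 FPKM), 8 red blood cell, 7 leukocyte, 8 nerve and 8 mesothelial markers and 10 markers of stomach and duodenum did, with Tff2, Gkn2 and Fabp1 of the last list at 0 in all libraries. The mesothelial list was mixed, with 2 of its 6 tested genes higher by mean and 4 lower, so its sum does not describe each gene. Krt19 was at 2.13 to 4.05 FPKM in WT and 13.4 to 47.0 FPKM in Lats1/2PanKO buds. Lrrn4 was at 1.33 to 3.17 FPKM in WT and 0.285 to 0.980 FPKM in Lats1/2PanKO buds. Values without Lats1/2PanKO replicate 3 are given below for each Wnt gene at an unadjusted p under 0.05.

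None of the 41 tested Wnt genes had an adjusted p under 0.05 in limma's fit, where 2 of all 13777 genes did (0.0145%). At an unadjusted p under 0.05 there were 9, or 22%, against 11.3% of all genes. The 2 that were higher in Lats1/2PanKO buds (background 6.29%) were Wnt7b and Rnf43. The 7 that were lower (background 4.99%) were Wnt5b, Fzd4, Sfrp1, Sfrp2, Frzb, Rspo3 and Wls. In 5 of the 41 genes the groups did not overlap, against 7.51% of all genes. These were Wnt7b and Rnf43 above the WT range (background 4.46%) and Fzd4, Sfrp1 and Frzb below it (background 3.06%). With quantile normalization, which the study's methods name, there were 3 above (Axin1 besides Wnt7b and Rnf43) and 2 below (Fzd4 and Frzb), as Sfrp1 then overlapped. The median log2 fold change over the 41 genes was -0.14, and over all genes it was -0.01. Without Lats1/2PanKO replicate 3 there were 3 higher genes (Wnt7b, Rnf43 and Notum, background 3.51%) and 0 lower ones (background 2.19%), and the median was -0.07.

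**Figure D1:**
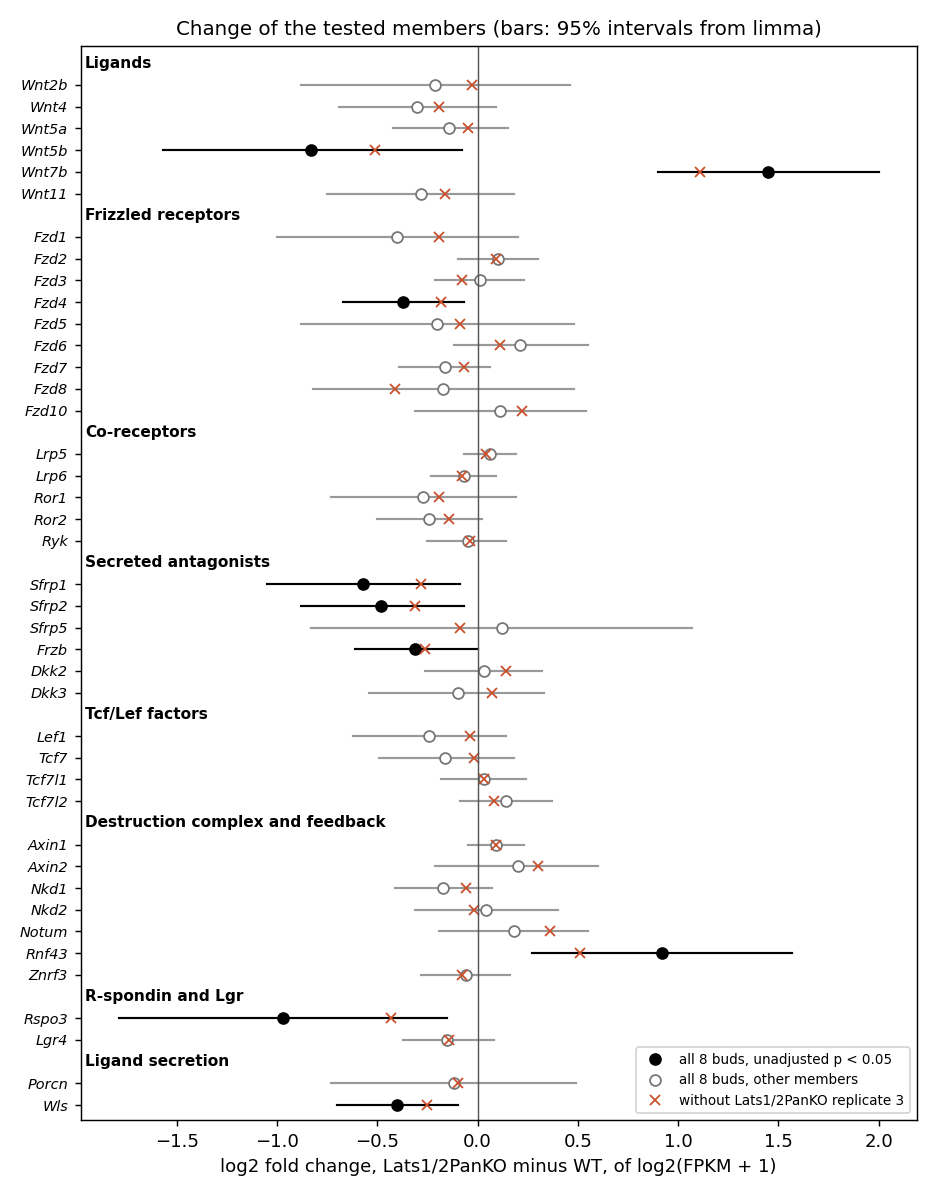
Log2 fold change (Lats1/2PanKO minus WT, on log2(FPKM + 1)) of the 41 tested Wnt genes by class, with 95% intervals from limma. Filled points are the 9 genes with an unadjusted p under 0.05, and crosses show the value without Lats1/2PanKO replicate 3, which lies nearer to 0 for each of the 9, Wnt7b (1.11) and Rnf43 (0.51) included.

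Promoter sequence was examined for these 9 genes. RefSeq start sites of GRCm38.p6 were at hand for 6 of them, with 9 windows of 250 bases upstream of a start. Each was searched on both strands for CTTTGAT, the core bound by Tcf/Lef factors, and for GGAATG, the core bound by TEAD factors, through which YAP1 and TAZ act. A single window held a match. It is shown with that match in capitals, followed for comparison by 1 of the 2 windows of Rnf43, a gene that was higher in Lats1/2PanKO buds and held neither motif in either window. The first is a window of Wnt5b at chr6:119449387-119449636 on the minus strand, with the match starting 71 bases before the start site. The second is at chr11:87662837-87663086 on the plus strand, upstream of a RefSeq start site that lies inside the longer GENCODE span of the gene given with its values.
Wnt5b: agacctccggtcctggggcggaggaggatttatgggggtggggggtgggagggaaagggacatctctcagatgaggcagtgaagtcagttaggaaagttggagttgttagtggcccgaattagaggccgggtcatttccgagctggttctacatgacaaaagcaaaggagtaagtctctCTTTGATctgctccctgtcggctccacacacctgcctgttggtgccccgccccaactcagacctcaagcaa
Rnf43: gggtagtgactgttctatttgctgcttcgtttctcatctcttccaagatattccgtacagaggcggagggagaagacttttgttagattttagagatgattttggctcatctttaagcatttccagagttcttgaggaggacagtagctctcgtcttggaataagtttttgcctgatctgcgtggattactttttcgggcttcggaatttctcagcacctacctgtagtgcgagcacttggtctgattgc
Across all 32851 windows of this length 3.21% held CTTTGAT and 12.6% held GGAATG. Among 40 windows of 31 Wnt genes, 2 held the Tcf/Lef core (Wnt5b and Wnt11) and 1 held the TEAD core (Lgr4). A match is only a description of the letters, and a window without one says nothing of the factor.

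Among the ligands Wnt7b was higher and Wnt5b lower in Lats1/2PanKO buds at an unadjusted p under 0.05. Wnt7b, a ligand known from developing epithelia, lies at chr15:85535437-85582473 of GRCm38 on the minus strand. It was at 2.49, 2.84, 2.78, 2.61 and 1.63 FPKM in WT replicates 1 to 5 and at 6.41, 6.46 and 14 FPKM in the Lats1/2PanKO buds. Every mutant bud exceeded every WT bud, and replicate 3 stood far above the other mutant buds. WT buds averaged 2.47 ± 0.486 FPKM (SD, n = 5) and mutant buds 8.95 ± 4.36 FPKM (SD, n = 3), a ratio of 3.63, or 2.61 without Lats1/2PanKO replicate 3. The log2 fold change was 1.45 (SE 0.24, 95% interval 0.90 to 2.00, limma adjusted p = 0.107), and the exact two-sided permutation test gave p = 0.0179, the smallest that 56 splits of 8 buds allow. Leaving out each bud in turn gave 1.11 to 1.62. Over 16 alternatives its adjusted p ran from 0.0205, with limma's weights for each library, to 0.451. The antisense gene AU022754 shares 324 exon bases with it and was at 0.104 FPKM in WT and 0.374 FPKM in Lats1/2PanKO buds on average.

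Epithelial markers were higher in the same buds. Of 13 epithelial markers 12 were higher at an unadjusted p under 0.05 (6.29% of all genes), with a median log2 fold change of 1.19. Without replicate 3, 11 were (3.51% of all genes). Per 100 FPKM of the summed epithelial markers, Wnt7b stood at 0.608 to 1.33 FPKM in WT buds and at 1.32 to 1.52 FPKM in Lats1/2PanKO buds. The groups overlapped in this ratio, which was higher by 0.51 on the log2 scale (exact permutation test, p = 0.0893). Against the geometric mean of the same markers the difference was 0.52 (exact permutation test, p = 0.0357). Both ratios were chosen after the values had been seen.

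Wnt5b was the most abundant ligand in every WT bud. It spans chr6:119432531-119544347, contains Fbxl14 on the other strand with no shared exon base, and was at 11.6, 8.48, 17.2, 14.1 and 21.2 FPKM in WT buds. In Lats1/2PanKO buds it was at 7.06, 12.6 and 4.38 FPKM. Replicates 1 and 3 lay below the WT range and replicate 2 within it. The WT mean was 14.5 ± 4.92 FPKM (SD, n = 5) and the mutant mean 8.02 ± 4.2 FPKM (SD, n = 3), which differ by -0.83 on the log2 scale (SE 0.33, limma adjusted p = 0.399). It was -0.51 without Lats1/2PanKO replicate 3, where the unadjusted p was above 0.05.

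No other ligand reached an unadjusted p under 0.05. Wnt4 was at 3.30 to 6.21 FPKM in WT and at 2.89 to 4.05 FPKM in Lats1/2PanKO buds (log2 fold change -0.30, 95% interval -0.69 to 0.09). Wnt5a, the prototype of signaling without β-catenin, was at 2.27 to 3.01 and 1.91 to 2.60 FPKM (95% interval -0.42 to 0.15). Wnt2b was at 0.861 to 3.63 FPKM in WT buds, where WT replicate 5 was the lowest, and at 1.36 to 2.66 FPKM in mutant buds. Wnt11 stayed under 1 FPKM in all 8 libraries. Wnt2 and Wnt6 were below the test limit. Wnt2 was listed at 0 in WT replicates 1, 4 and 5, at 0.352 and 0.356 FPKM in WT replicates 2 and 3, and at 0.0474 to 0.102 FPKM in Lats1/2PanKO buds. Wnt6 reached at most 0.0643 FPKM in WT buds and 0.198 FPKM in Lats1/2PanKO replicate 3.

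As a share of the summed FPKM of the 8 ligands, Wnt7b made up 4.87% to 12.9% in WT buds and 28.1%, 22.6% and 56.2% in Lats1/2PanKO replicates 1, 2 and 3. Wnt5b made up 38.6% to 63.1% in WT buds and 31.0%, 44.2% and 17.6% in the mutant buds. Wnt5b ranked first in all 5 WT buds and in Lats1/2PanKO replicates 1 and 2, and Wnt7b ranked first in replicate 3. The sum itself was 22 to 33.6 FPKM in WT and 22.8 to 28.6 FPKM in Lats1/2PanKO buds, so the mutant sums lay within the WT range.

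**Figure D2:**
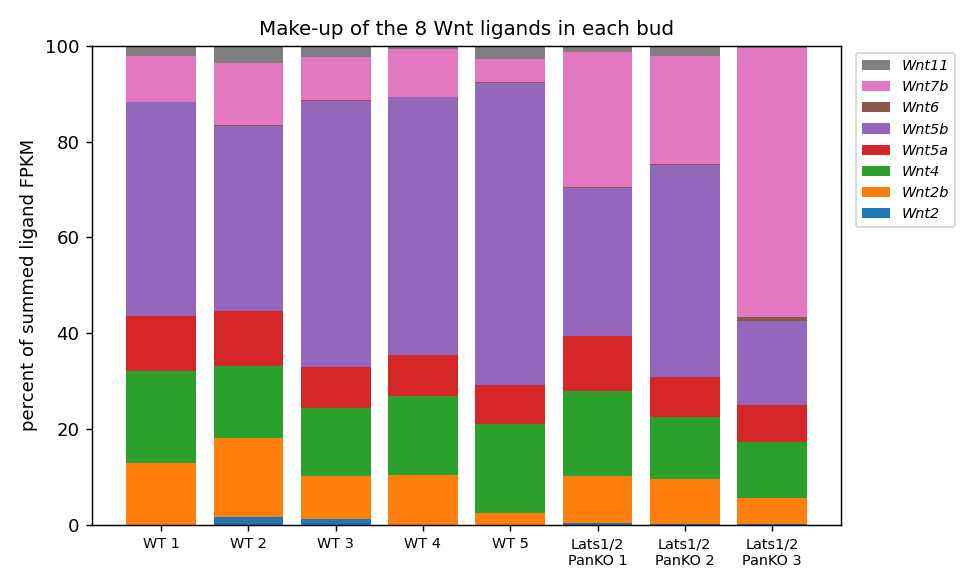
Percent of the summed FPKM of the 8 Wnt ligands taken by each ligand in each bud, 5 WT and 3 Lats1/2PanKO. The Wnt7b segment is 4.87% to 12.9% in WT buds and 22.6% to 56.2% in Lats1/2PanKO buds, and the Wnt5b segment is smallest in Lats1/2PanKO replicate 3 (17.6%).

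Of the genes needed for ligand secretion, Wls was lower at an unadjusted p under 0.05 and Porcn was not, with overlapping groups for each. Wls, the carrier of Wnt proteins to the cell surface, at chr3:159839672-159938664, was at 22.7, 23.7, 19.8, 23.5 and 26.2 FPKM in WT buds. It was at 17.4, 21.4 and 13.8 FPKM in Lats1/2PanKO buds, with replicate 2 inside the WT range. On the log2 scale Wls differed by -0.40 (SE 0.13, limma adjusted p = 0.325), and by -0.25 without Lats1/2PanKO replicate 3. Porcn was at 1.73 to 5.31 FPKM in WT and 1.75 to 3.24 FPKM in Lats1/2PanKO buds, and its sign depended on WT replicate 5 (log2 fold change -0.12, and 0.08 without that bud).

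Of 9 tested Frizzled receptors, 8 overlapped between the genotypes, as most genes did (7.51% of all genes did not). Fzd7 was the most abundant in every bud, at 30.8 to 38.9 FPKM in WT and 28.0 to 36.0 FPKM in Lats1/2PanKO buds (log2 fold change -0.16, 95% interval -0.39 to 0.06). Fzd2 was at 15.5 to 19.6 and 17.6 to 20.6 FPKM (95% interval -0.10 to 0.30), and Fzd3 at 12.2 to 14.2 and 11.5 to 15.2 FPKM (95% interval -0.21 to 0.23).

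Fzd4 was the Frizzled receptor whose groups did not overlap. Fzd4 also serves as the receptor for norrin in blood vessels. It was at 11.9, 12.2, 11.3, 11.2 and 10.6 FPKM in WT buds and at 10.1, 9.82 and 6.47 FPKM in Lats1/2PanKO buds. The 3 mutant values were the 3 lowest, although replicate 1 lay only just under WT replicate 5. This gave a log2 fold change of -0.37 (SE 0.13, limma adjusted p = 0.351, exact permutation p = 0.0179), and -0.18 without Lats1/2PanKO replicate 3. Endothelial markers had lower means in 10 of 10 cases, where 7316 of all 13777 genes did. At an unadjusted p under 0.05, 3 were lower (4.99% of all genes), and 2 without Lats1/2PanKO replicate 3 (2.19%). Their summed FPKM was 127 to 223 in WT and 92.5 to 142 in Lats1/2PanKO buds, and their part in the Fzd4 values was not tested.

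Fzd5 and Fzd1 differed widely among WT buds. Fzd5 was at 11.6 and 9.47 FPKM in WT replicates 1 and 2 and at 22.4, 20.0 and 25.4 FPKM in replicates 3 to 5, with all Lats1/2PanKO values (13.9, 17.5 and 12.1 FPKM) inside that range. Fzd1 ran the other way in part, with 14.7 and 17.5 FPKM in WT replicates 1 and 2 and 7.69 to 11.3 FPKM in the other WT buds, against 6.10 to 11.4 FPKM in Lats1/2PanKO buds. Fzd6, Fzd8 and Fzd10 stayed under 5 FPKM in all 8 libraries with overlapping groups. Fzd9 was below the limit and reached at most 0.242 FPKM.

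The co-receptors overlapped between genotypes in all 5 cases, as most genes did (7.51% of all genes did not). Lrp6 was at 34.9 to 42.1 FPKM in WT and 34.8 to 36.7 FPKM in Lats1/2PanKO buds (95% interval of the log2 fold change -0.23 to 0.09), and Lrp5 at 24.5 to 26.5 and 25.6 to 27.8 FPKM (-0.07 to 0.19). Ryk, a receptor with a Wnt-binding domain, was at 21.0 to 25.3 and 21.1 to 25.5 FPKM (-0.25 to 0.14). The receptors of the Ror pair were lower by mean at an unadjusted p above 0.05. Ror2 was at 24.0 to 32.7 FPKM in WT and 19.1 to 24.6 FPKM in Lats1/2PanKO buds (log2 fold change -0.24, 95% interval -0.50 to 0.02). Ror1 was at 14.1 and 14.9 FPKM in WT replicates 1 and 2, at 8.14 to 9.16 FPKM in the other WT buds and at 7.66 to 9.36 FPKM in Lats1/2PanKO buds.

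**Figure D3:**
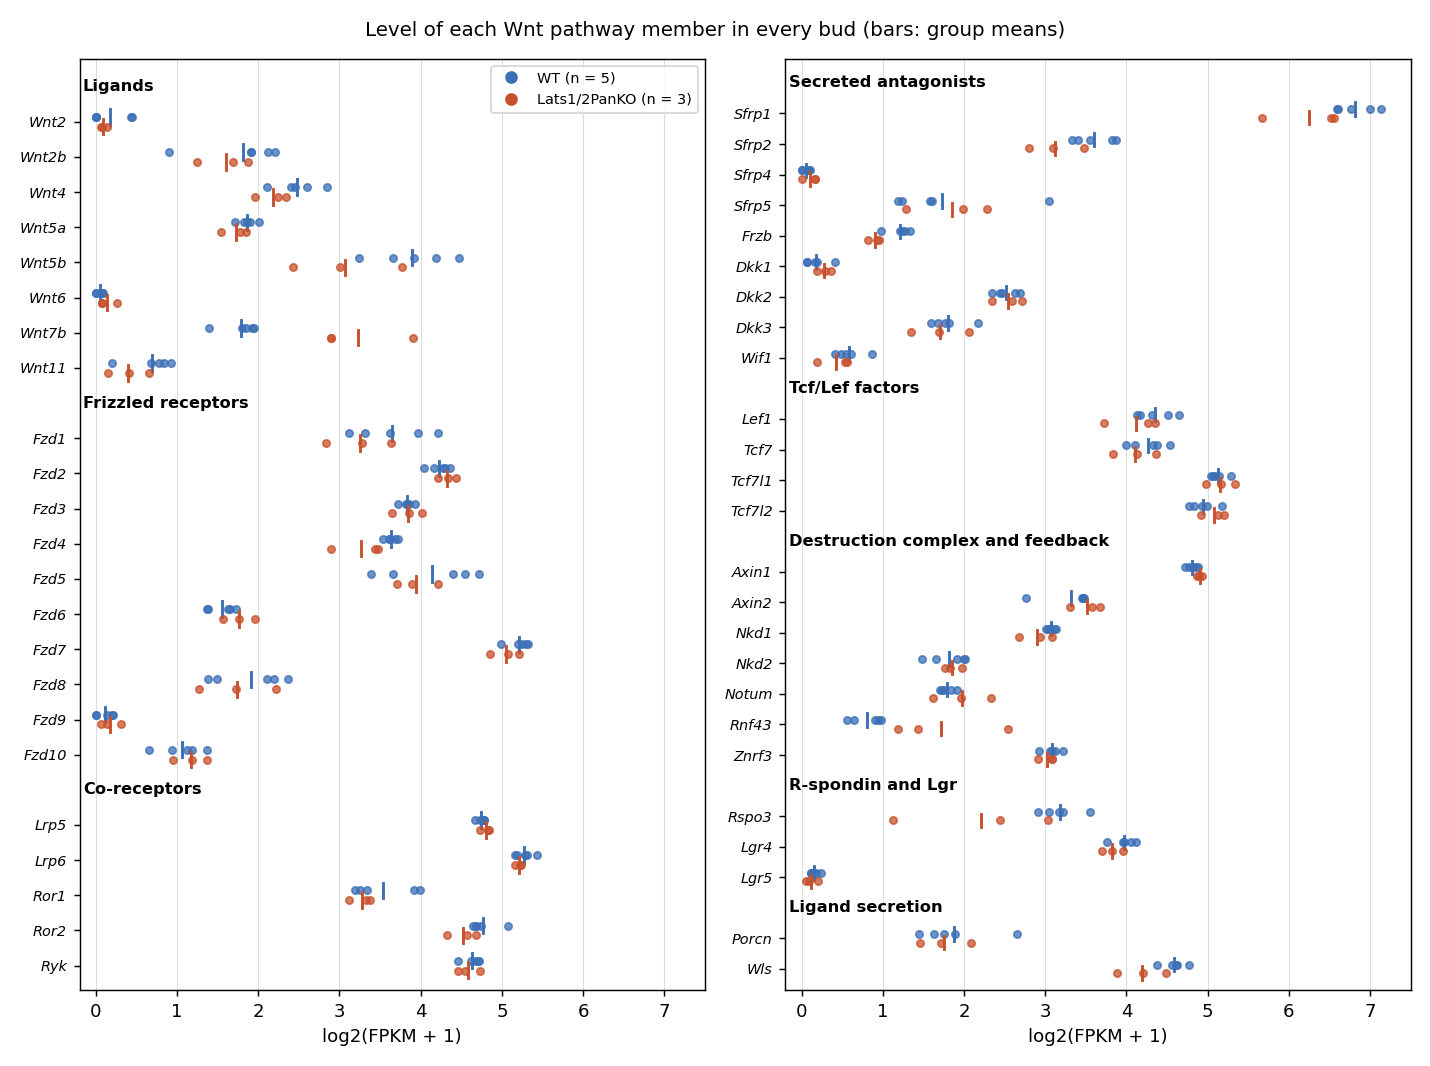
Level of all 48 Wnt genes in each bud as log2(FPKM + 1), with WT (n = 5) in blue and Lats1/2PanKO (n = 3) in red and vertical bars at the group means of log2(FPKM + 1). Sfrp1 lies furthest to the right, Wnt7b and Rnf43 are separated with Lats1/2PanKO higher, and Rspo3 and Sfrp1 each have 1 Lats1/2PanKO bud far to the left.

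Of 6 tested secreted antagonists, 3 were lower in Lats1/2PanKO buds at an unadjusted p under 0.05 (4.99% of all genes were) and 0 were higher (6.29% of all genes). Without Lats1/2PanKO replicate 3 both counts were 0. Sfrp1, a soluble Frizzled-like protein that binds Wnt ligands, was the most abundant of the 48 genes in every bud. It lies at chr8:23411502-23449632 and was at 127, 139.9, 96.6, 108 and 95.5 FPKM in WT buds and at 91.0, 93.4 and 50.0 FPKM in Lats1/2PanKO buds. The mutant buds were the lowest 3, with replicates 1 and 2 close under the WT range and replicate 3 far below it. For Sfrp1 the log2 fold change was -0.57 (SE 0.21, 95% interval -1.05 to -0.09, limma adjusted p = 0.365, exact permutation p = 0.0357), and -0.28 without replicate 3.

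Sfrp2, a relative with the same mode of action, was at 10.7, 9.07, 13.2, 9.54 and 13.7 FPKM in WT buds and at 7.56, 10.1 and 5.95 FPKM in Lats1/2PanKO buds, replicate 2 being within the WT range (log2 fold change -0.48, SE 0.18, limma adjusted p = 0.377). Frzb, another member of that family, was low throughout, at 0.973 to 1.52 FPKM in WT and 0.754 to 0.941 FPKM in Lats1/2PanKO buds, with no overlap (log2 fold change -0.31, adjusted p = 0.438 from limma). Neither kept an unadjusted p under 0.05 without Lats1/2PanKO replicate 3, where their log2 fold changes were -0.31 and -0.26. Sfrp5 was at 1.27 to 2.04 FPKM in 4 WT buds and 7.26 FPKM in WT replicate 4, against 1.44 to 3.85 FPKM in Lats1/2PanKO buds, and its sign changed with the buds used.

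The Dickkopf genes, whose best known members block Lrp5 and Lrp6, overlapped. Dkk2 was at 4.08 to 5.44 FPKM in WT and 4.06 to 5.58 FPKM in Lats1/2PanKO buds (95% interval -0.26 to 0.32), and Dkk3, a divergent relative, at 2.02 to 3.49 and 1.54 to 3.16 FPKM (-0.54 to 0.33). Dkk1, Sfrp4 and Wif1 were below the test limit. Dkk1 was at 0.0448 to 0.323 FPKM in WT and 0.136 to 0.287 FPKM in mutant buds, and Wif1, which binds Wnt proteins directly, at 0.330 to 0.825 and 0.136 to 0.478 FPKM. Sfrp4 was listed at 0 in WT replicates 2 and 3 and in Lats1/2PanKO replicate 1 and reached at most 0.118 FPKM.

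In the R-spondin arm Rspo3 was lower at an unadjusted p under 0.05 and its receptor gene Lgr4 was not, with overlapping groups for each. Rspo3, a secreted protein that strengthens Wnt signaling through Lgr receptors, lies at chr10:29452416-29535867. It was at 8.0, 6.50, 10.7, 8.31 and 7.24 FPKM in WT buds and at 4.45, 7.22 and 1.18 FPKM in Lats1/2PanKO buds. The mutant values ranged from within the WT range (replicate 2) to a small fraction of it (replicate 3). For Rspo3 this was a log2 fold change of -0.97 (SE 0.36, 95% interval -1.79 to -0.15, limma adjusted p = 0.365, exact permutation p = 0.0357). Without Lats1/2PanKO replicate 3 it was -0.43 and the unadjusted p was above 0.05. Lgr4, its receptor, was at 12.5 to 16.4 FPKM in WT and 12.0 to 14.5 FPKM in Lats1/2PanKO buds (95% interval -0.37 to 0.08). Lgr5 was below the limit, at no more than 0.175 FPKM in any bud. Of the related ligands, Rspo1 was at 4.18 to 7.49 FPKM in WT and 2.87 to 4.87 FPKM in Lats1/2PanKO buds (log2 fold change -0.40, adjusted p = 0.493 from limma, and -0.25 without replicate 3).

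Mesenchymal markers had lower means too. Of 16 such markers 15 had a lower mean, where 7316 of all 13777 genes did. At an unadjusted p under 0.05, 5 were lower (4.99% of all genes), and Prrx1 was higher by 0.61 on the log2 scale. Without Lats1/2PanKO replicate 3, 2 were lower (2.19%) and 0 higher (3.51%). The median log2 fold change was -0.46, and -0.16 without that bud. Set against the summed FPKM of these markers in each bud, the 7 lower Wnt genes did not share a direction. Barx1 was the largest part of that sum in every bud. It was at 173 to 500.1 FPKM in WT buds, with sums of 706 to 947 FPKM, and at 115 to 302 FPKM in mutant buds, with sums of 339 to 723 FPKM. The log2 difference of this ratio was -0.59 for Rspo3 and -0.25 for Wnt5b, and 0.09, 0.14, 0.08, 0.25 and 0.26 for Sfrp1, Sfrp2, Frzb, Wls and Fzd4 (exact permutation tests, smallest p = 0.0893, for Rspo3). Against the geometric mean of the markers all 7 differences were below 0, from -0.86 for Rspo3 to -0.01 for Fzd4 (exact permutation tests, smallest p = 0.0714, for Rspo3). Per 100 FPKM of summed markers, Rspo3 was at 0.787 to 1.13 FPKM in WT buds and at 0.795, 0.999 and 0.349 FPKM in the mutant buds, so that only replicate 3 lay outside.

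**Figure D4:**
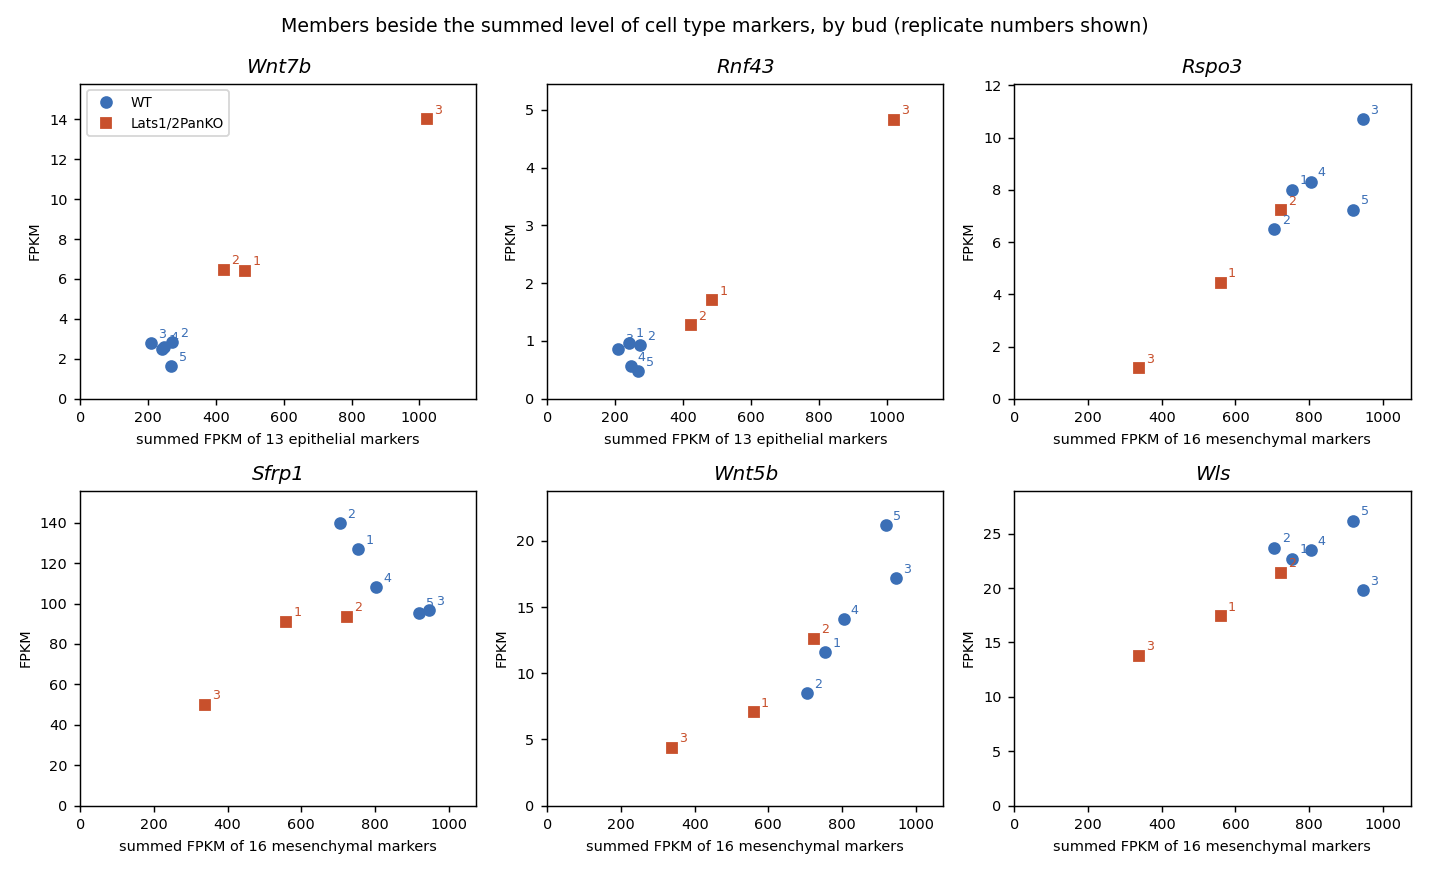
FPKM of 6 Wnt genes (vertical axes) against the summed FPKM of 13 epithelial or 16 mesenchymal markers (horizontal axes), a point per bud with its replicate number, WT as circles and Lats1/2PanKO as squares. Lats1/2PanKO replicate 3 has the highest epithelial sum (1021) with the highest Wnt7b and Rnf43, and the lowest mesenchymal sum (339) with the lowest Rspo3, Sfrp1, Wnt5b and Wls.

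Tcf/Lef factors, the nuclear end of the pathway, overlapped between genotypes in all 4 cases, as most genes did (7.51% of all genes did not). Tcf7l1, which mainly acts as a repressor, was at 31.9 to 38.2 FPKM in WT and 30.5 to 39.3 FPKM in Lats1/2PanKO buds (95% interval of the log2 fold change -0.18 to 0.24). Tcf7l2 was at 26.4 to 35.2 and 29.3 to 35.8 FPKM (-0.09 to 0.37). Lef1 was at 18.9, 21.8, 24.0, 16.9 and 16.5 FPKM in WT and at 19.5, 18.2 and 12.2 FPKM in Lats1/2PanKO buds (log2 fold change -0.24, and -0.04 without replicate 3). Tcf7 was at 14.9 to 22.2 and 13.3 to 19.6 FPKM (-0.16, and -0.02 without replicate 3).

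Among the destruction complex and feedback genes Rnf43 was higher and the other 6 overlapped, as most genes did (7.51% of all genes did not). Rnf43, a ubiquitin ligase that removes Frizzled receptors from the cell surface, lies at chr11:87662722-87735539. The gene 1110028F11Rik overlaps it on the same strand with 0 shared exon bases and was at 0.120 FPKM in WT and 0.605 FPKM in Lats1/2PanKO buds on average. Rnf43 itself was at 0.966, 0.924, 0.862, 0.560 and 0.472 FPKM in WT buds and at 1.70, 1.27 and 4.83 FPKM in Lats1/2PanKO buds. Every mutant bud exceeded every WT bud. WT buds averaged 0.757 ± 0.225 FPKM (SD, n = 5), and mutant buds 2.60 ± 1.94 FPKM (SD, n = 3), or 1.49 FPKM without replicate 3. The difference was 0.92 on the log2 scale (SE 0.29, 95% interval 0.27 to 1.57, limma adjusted p = 0.304, exact permutation p = 0.0179) and 0.51 without replicate 3. Per 100 FPKM of the summed epithelial markers it overlapped, with 0.175 to 0.412 FPKM in WT and 0.301 to 0.474 FPKM in Lats1/2PanKO buds (exact permutation test, p = 0.411).

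Its close relative Znrf3, with the same function, was at 6.59 to 8.30 FPKM in WT and 6.51 to 7.47 FPKM in Lats1/2PanKO buds (95% interval -0.28 to 0.16). Axin2, a widely used readout of β-catenin activity, was at 10.1, 9.93, 10.0, 10.0 and 5.79 FPKM in WT buds and at 10.9, 11.8 and 8.85 FPKM in Lats1/2PanKO buds. WT replicate 5 alone lay far below the others, and without it the log2 fold change went from 0.20 (95% interval -0.21 to 0.60) to 0.06. Notum, which strips the lipid from Wnt ligands, was at 2.25 to 2.78 FPKM in WT buds and at 2.89, 4.04 and 2.08 FPKM in Lats1/2PanKO buds. Of those values 2 lay above the WT range and the other lay below it (log2 fold change 0.18, adjusted p = 0.735 from limma). Without replicate 3 it was 0.36, with an adjusted p of 0.848 from limma. Nkd1, an inhibitor that binds Dishevelled, was at 7.06 to 7.80 and 5.38 to 7.45 FPKM (95% interval -0.41 to 0.07), and Nkd2 at 1.80 to 3.04 and 2.41 to 2.93 FPKM (-0.31 to 0.40). Axin1, the scaffold of the destruction complex, was at 25.3 to 28.6 and 28.3 to 29.6 FPKM (-0.05 to 0.23).

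Of 65 further pathway genes, from a list made with earlier results of these data known, 47 passed the limit. Of these 47, 3 were higher and 2 lower at an unadjusted p under 0.05, and 0 passed the adjusted threshold. These 5 are 10.6% of the 47, close to the 11.3% of all genes, and without Lats1/2PanKO replicate 3 there were 2 higher and 0 lower. Their median log2 fold change was -0.04. The 5 genes are described here, and Ctnnb1, Rspo1, Myc, Wnt9a and Wnt16 were picked after their values had been seen. Among 15 cytoplasmic components Ctnnb1, which encodes β-catenin, was at 256 to 283 FPKM across all 8 buds (95% interval of the log2 fold change -0.18 to 0.09). Dvl2, a Dishevelled gene, was at 22.8 to 28.5 FPKM in WT and 18.9 to 21.1 FPKM in Lats1/2PanKO buds, with no overlap (log2 fold change -0.26, adjusted p = 0.319 from limma, and -0.21 without replicate 3). Tle4, a corepressor of Tcf/Lef factors, was at 44.9 to 67.1 and 27.1 to 48 FPKM (log2 fold change -0.45, adjusted p = 0.433 from limma, and -0.20 without replicate 3).

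The 3 higher genes belong to planar polarity signaling and to the target list. Daam1, a formin that acts downstream of Dishevelled, was at 12.3 to 17.2 FPKM in WT and 16.8 to 26.9 FPKM in Lats1/2PanKO buds (log2 fold change 0.49, adjusted p = 0.292 from limma). Vangl1, a core planar polarity protein, was at 3.53 to 5.82 and 5.92 to 7.82 FPKM, with no overlap (log2 fold change 0.36, adjusted p = 0.423 from limma). Ccnd1 is a cell cycle gene often listed as a Wnt target, and the study lists it among known TEAD targets. Ccnd1 was at 41.6 to 56.7 and 63.0 to 101 FPKM, also with no overlap (log2 fold change 0.51, adjusted p = 0.30 from limma). Without Lats1/2PanKO replicate 3 the log2 fold changes of Daam1 and Ccnd1 were 0.31 each, still at an unadjusted p under 0.05, whereas Vangl1 (0.26), Dvl2 and Tle4 no longer reached it. Myc, another target on that list, was at 15.9 to 20.9 and 18.6 to 23.0 FPKM (95% interval -0.07 to 0.39). Of 11 further ligands, Wnt9a and Wnt16 were tested, at 0.766 to 2.08 and 0.270 to 1.13 FPKM for Wnt9a and at 0.261 to 0.700 and 0.677 to 1.88 FPKM for Wnt16, each with overlapping groups. Wnt1, Wnt3a, Wnt8a, Wnt10a and Wnt10b were listed at 0 in all 8 libraries.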

How the data were processed

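Total RNA of each bud was depleted of ribosomal RNA and sequenced from stranded libraries. The authors trimmed reads with cutadapt 1.12, aligned them to mm10 with TopHat2 2.1.0 and deposited FPKM per gene and library from Cuffdiff 2.2.1, with no pooling. The study's methods name quantile normalization, but the columns do not share a distribution (upper quartiles above 0 of 19.79 to 21.53 FPKM) and were used as deposited. FPKM is not a count, so no count model was used. The 48 genes, the gene lists and the markers were chosen with earlier results of these data known. The genes named are all 48, both deleted kinases and, by rule, the other pathway genes with an unadjusted p under 0.05. Other pathway genes outside the rule were picked after their values were seen.

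Values were tested as log2(FPKM + 1) with limma 3.58.1 in R 4.3.3, with a mean-variance trend, over the 13777 genes whose mean reached 0.5 FPKM. Single values were tested with the exact two-sided permutation test over 56 splits. The fit was checked on simulated data. Alternatives covered the pseudocount (0.1 FPKM), the filter (a mean of 2 FPKM, or none), quantile and median-ratio scaling, library weights, no trend, a replicate block and leaving out each library. Ratios to summed markers and to their geometric mean were added after seeing the data. The deposited starts count from 0. Gene positions are from GENCODE M21 and promoters from RefSeq, both on GRCm38.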

Additional observations from a re-analysis of the deposited data

Results flagged for a closer look

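Among the 5 WT buds, 1 bud lay far from the other 4 in 4 of the 48 genes, by Dixon's criterion at the 95% level, which chance meets in about 5% of groups. Ror2 was at 32.7 FPKM in WT replicate 5 and at 24.0 to 25.8 FPKM in the others. Axin2 was at 5.79 FPKM in WT replicate 5 and at 9.93 to 10.1 FPKM in the others. Porcn was at 5.31 FPKM in WT replicate 5 and at 1.73 to 2.69 FPKM in the others. Sfrp5 was at 7.26 FPKM in WT replicate 4 and at 1.27 to 2.04 FPKM in the others. WT replicate 5, in which 3 of the 4 genes stood apart, was also the shallowest library. Over all tested genes it correlated least with the other WT buds (r = 0.9385 to 0.9492). The share of all genes that met the criterion is not given, so the count says nothing particular of the Wnt genes.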

How the results depend on the processing

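Of 667 values of single Wnt genes under alternatives, 639 kept their sign and their side of the adjusted p threshold of 0.05. No Wnt gene passed that threshold in the main fit, where the smallest limma adjusted p was 0.107, for Wnt7b. Staying on the same side therefore says little of stability. The ratios to markers, which have no adjusted p, were counted by sign alone. The exception on the threshold was Wnt7b, which had a log2 fold change of 1.15 and an adjusted p of 0.0205 with limma's library weights, so that the number of genes with an adjusted p under 0.05 went from 0 to 1 there. The number at an unadjusted p under 0.05 was 3 to 9 when each library was left out, the 3 being without Lats1/2PanKO replicate 3. Of these fits, only that without Lats1/2PanKO replicate 3 has its share of all genes given above. With library weights the number was 12 (3 higher and 9 lower), the largest of any setting, and the share of all genes there is not given. Quantile normalization left the number of genes without overlap at 5 but put Axin1 in and Sfrp1 out. That number was 3 at a minimum mean of 2 FPKM, and 5 to 11 when each library was left out: 11 without Lats1/2PanKO replicate 2 and 8 without WT replicate 2, WT replicate 3 or Lats1/2PanKO replicate 1. Smaller groups separate more easily, so a rise with fewer buds is built into the count. The share of all genes at those smaller numbers is not given, so these counts say nothing particular of the Wnt genes. Of the 9 genes at an unadjusted p under 0.05, only Wnt7b stayed under it in every alternative fit. Rnf43 did so in 14 of its 15 alternatives, the exception being the replicate block (limma, unadjusted p = 0.0657). The cause of the other shifts was not tested.

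Some signs turned. With library weights Fzd3 was at -0.00 and Tcf7l1 at -0.06. As a ratio to summed markers, of which Barx1 was the largest part, 5 of the 7 lower genes turned sign, and Frzb was at 0.08, Fzd4 at 0.26, Sfrp1 at 0.09, Sfrp2 at 0.14 and Wls at 0.25. As a ratio to the geometric mean of the markers all 7 stayed lower. Leaving out 1 library gave ranges of -0.05 to 0.14 for Dkk2, -0.28 to 0.07 for Dkk3, -0.08 to 0.11 for Fzd3, -0.41 to 0.06 for Fzd8, -0.04 to 0.09 for Nkd2, -0.29 to 0.08 for Porcn, -0.13 to 0.00 for Ryk, -0.09 to 0.45 for Sfrp5, -0.06 to 0.12 for Tcf7l1 and -0.09 to 0.00 for Znrf3.

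WT and Lats1/2PanKO replicates share numbers in the labels, which do not say whether the numbers pair buds. Deviations of same-numbered buds from their group means correlated weakly across genes (r = 0.085, -0.097 and 0.069 for numbers 1, 2 and 3). Numbers 1 and 3 correlated best with each other, and number 2 did not. The highest r of any pair was 0.135, between WT replicate 4 and Lats1/2PanKO replicate 2. Such small values in so few buds cannot decide whether a litter or batch was shared. With the replicate block 7 Wnt genes had an unadjusted p under 0.05 and 0 an adjusted one, and Dkk3 (0.00), Fzd3 (-0.03), Fzd5 (0.07) and Porcn (0.06) turned sign. With 3 mutant buds, FPKM without counts and a bud with the most epithelial RNA, small differences could not be resolved.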

Other observations

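WT replicates 1 and 2 differed from WT replicates 3 to 5 in several Wnt genes, with no group in the labels that separates them. Fzd5 and Wnt5b were lower (11.6 and 9.47, and 11.6 and 8.48 FPKM) than in the other WT buds (20.0 to 25.4 and 14.1 to 21.2 FPKM), and Fzd1 and Ror1 were higher (14.7 and 17.5, and 14.1 and 14.9 FPKM, against at most 11.3 and 9.16 FPKM). Barx1, a transcription factor of stomach and pancreatic mesenchyme, was at 234 and 173 FPKM in those 2 buds and at 359 to 500.1 FPKM in the other 3. Postn, which encodes a matrix protein, was at 30.0 and 29.2 FPKM in them and at 4.15 to 6.41 FPKM in the others. The difference was noticed in the values and was not tested.

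Of 11 planar polarity genes 8 had a higher mean in Lats1/2PanKO buds, with 2 higher at an unadjusted p under 0.05 (6.29% of all genes) and 0 lower (4.99%), and with 1 higher without Lats1/2PanKO replicate 3. Of 9 nuclear partners of β-catenin and Tcf/Lef factors 8 had a lower mean, with 1 lower at an unadjusted p under 0.05 (Tle4) and 0 without that bud. Of all 13777 genes 6461 had a higher and 7316 a lower mean. The median log2 fold change was 0.05 for the planar polarity genes, -0.05 for the nuclear partners and -0.01 for all genes.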
